A study of Mus musculus with 16 samples.

Results

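The genes described here encode the signaling module of the T cell receptor (TCR). They are *Cd3e*, *Cd3d*, *Cd3g* and *Cd247* for the invariant chains, *Lck*, *Fyn* and *Zap70* for the proximal tyrosine kinases, and *Lat* and *Lcp2* for the scaffold and adaptor. They were taken from the deposited count table by gene name, and all 9 of 9 names were found among its 55450 genes. Total RNA of CD4+ and CD8+ tumor-infiltrating lymphocytes (TILs) had been sequenced from subcutaneous tumors of B16F10, a transplantable mouse melanoma line. The hosts were wild-type (WT) or *Sirt2*-/- mice (Sirt2KO in the labels), which carry a germline deletion of the deacetylase SIRT2 in all tissues (strain B6.129-Sirt2tm1.1Fwa/J in the study's methods). Each of the 4 groups (WT CD4+, *Sirt2*-/- CD4+, WT CD8+ and *Sirt2*-/- CD8+) had 4 libraries. By the study's methods the mice were 7 to 8 weeks old, of both sexes, with controls matched for age and sex, but the labels do not give the sex of the mouse behind each library. All mice bore the same tumor, with no drug named. TILs were enriched on CD3ε beads, and how CD4+ and CD8+ cells were then separated is not given in the sources used here. The labels do not state whether CD4+ and CD8+ libraries of the same number came from 1 mouse, so p-values measure only the spread between these libraries. In bulk RNA of this kind, fewer cells of a type and less RNA per cell cannot be told apart. The question addressed was whether the transcripts of the module differed between genotypes, within each cell type, and between CD4+ and CD8+ TILs.

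The TCR recognizes peptide on MHC through its variable chains, which have no signaling domains of their own. CD3ε pairs with CD3δ or CD3γ, and the ζ chain encoded by *Cd247* forms a homodimer that carries most of the phosphorylation motifs of the complex. LCK, which binds the CD4 and CD8 coreceptors, phosphorylates these motifs and then ZAP-70, and ZAP-70 phosphorylates LAT and SLP-76 (encoded by *Lcp2*), on which phospholipase Cγ1 is assembled. FYN is the second Src family kinase of T cells.

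Library totals ranged from 28000949 to 62407851 counts on genes. In 3 libraries fewer than 15000 genes had a count: *Sirt2*-/- CD4+ replicate 4 (8169 genes), WT CD4+ replicate 1 (12587) and WT CD8+ replicate 1 (14411), against 17730 to 22138 in the other 13. Fitted differences of the 9 genes that rest on these libraries are therefore given with and without them. *Sirt2* measured 40.7 to 75.6 CPM (counts of a gene per 1000000 counts of its library, with the TMM scaling of edgeR) in WT CD4+ and 33.4 to 51.5 CPM in WT CD8+ libraries, against 0 to 12.2 CPM in *Sirt2*-/- CD4+ and 6.53 to 10.3 CPM in *Sirt2*-/- CD8+ libraries. The genotype labels thus held in 15 libraries. The 0 CPM of *Sirt2*-/- CD4+ replicate 4 does not check its label, since so few genes had a count there. *Cd4* measured 384 to 620.2 CPM in the 8 CD4+ libraries and 0 to 4.93 CPM in the 8 CD8+ libraries, and *Cd8a* 1003 to 1261 CPM in CD8+ and 0.0333 to 33.4 CPM in CD4+ libraries. Summed over 8 markers, myeloid transcripts reached at most 34.3 CPM, and summed over 4 markers B cell transcripts reached at most 12.5 CPM.

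All 9 genes were well measured. Their counts per library ran from 2788 (*Zap70*) to 52100 (*Cd3g*), and all 9 passed the filter on low counts in each comparison. To set one gene against another, CPM was divided by the kilobases of its annotated exons, giving RPKM (kilobase-scaled CPM). By this measure *Cd3g* had the highest mean level in every group, from 157 ± 29.2 RPKM (SD, n = 4) in *Sirt2*-/- CD4+ to 282 ± 61.5 RPKM (SD, n = 4) in *Sirt2*-/- CD8+ TILs. *Zap70* had the lowest mean, from 23.8 ± 3.47 RPKM (SD, n = 4) in *Sirt2*-/- CD4+ to 32.4 ± 6.81 RPKM (SD, n = 4) in WT CD4+ TILs. *Lck* stood next to *Cd3e* in all 4 groups, at 144 ± 16.4 and 132 ± 4.1 RPKM (SD, n = 4) in WT CD8+ TILs, and the libraries of the 2 genes overlapped in each group. In CD4+ TILs most neighbors in the order overlapped. In WT CD8+ TILs the order fell into steps whose libraries did not overlap: *Cd3g*, then *Lck* and *Cd3e*, then *Fyn*, *Cd3d* and *Lat* at 66.8 to 79.9 RPKM, then *Lcp2* at 46.5 RPKM, then *Cd247* and *Zap70* at 31.3 and 31.2 RPKM.

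**Figure D1:**
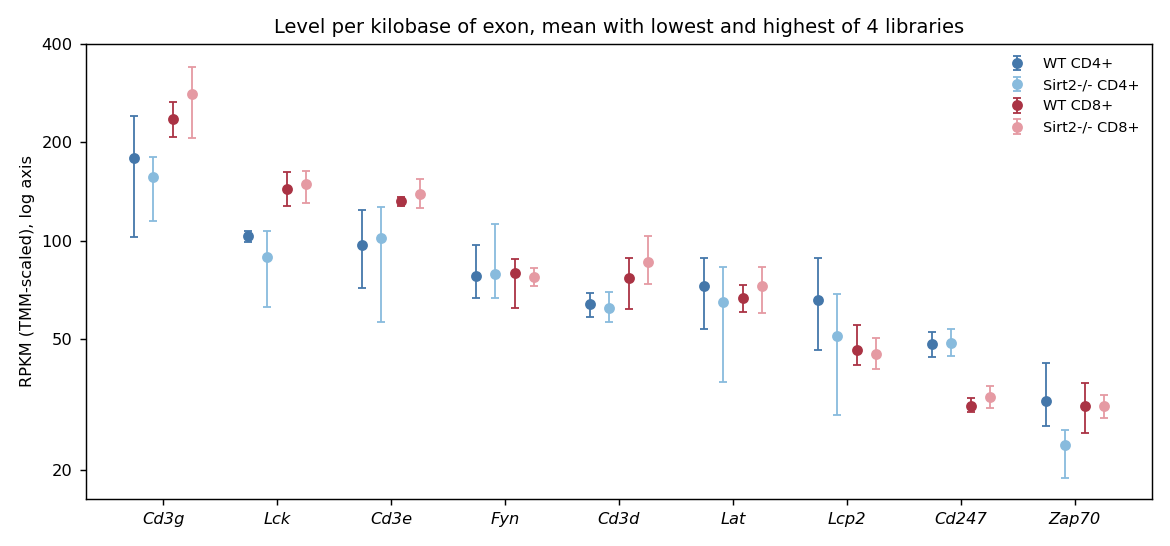
Level of each gene per kilobase of exon (RPKM, log axis) in the 4 groups. Points are means and bars run from the lowest to the highest of 4 libraries. *Cd3g* is highest and *Zap70* lowest by mean in each group, and *Cd247* in CD8+ TILs is close to *Zap70*.

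The place of *Cd247* in this order depends on how its reads were counted. Its exons cover 5329 bases, of which 3007 (56.4%) are shared with exons of *Pou2f1*, a transcription factor gene on the opposite strand, and the strand setting of the count is not given in the sources used here. Over the 2322 bases that are not shared, the same *Cd247* counts would give 111 ± 9.0 RPKM (SD, n = 4) in WT CD4+ and 71.9 ± 3.45 RPKM (SD, n = 4) in WT CD8+ TILs. Comparisons of *Cd247* between groups use the same bases in each group. *Pou2f1* itself measured 57.2 and 71.7 CPM on average in WT CD8+ and WT CD4+ TILs, and 55.0 and 49.0 CPM in *Sirt2*-/- CD8+ and CD4+ TILs.

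The CD3 chain genes lie together on chromosome 9 of GRCm38, where *Cd3g* (44969572 to 44980431) and *Cd3d* (44981786 to 44987339) are 1354 bases apart and transcribed away from each other. *Cd3e* (44998740 to 45009627) follows within a span of 40056 bases. *Cd3e* measured 336, 506, 449.9 and 293 CPM in WT CD4+ replicates 1 to 4 and 409.9, 507, 518 and 231 CPM in *Sirt2*-/- CD4+ replicates 1 to 4. In CD8+ TILs *Cd3e* measured 556, 522, 553 and 529.9 CPM in WT and 572, 559, 630.4 and 514 CPM in *Sirt2*-/- replicates. The genotypes overlapped in both cell types, and every WT CD8+ library lay above every WT CD4+ library.

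*Cd3d* measured 123, 126, 111 and 106 CPM in WT CD4+ and 113, 127, 112 and 102.5 CPM in *Sirt2*-/- CD4+ replicates 1 to 4. Its CD8+ values were 113, 149, 139 and 160.4 CPM in WT and 156, 188, 134 and 146 CPM in *Sirt2*-/- replicates. The 4 *Sirt2*-/- CD8+ libraries were above the 4 *Sirt2*-/- CD4+ libraries, whereas in WT the low WT CD8+ replicate 1 made the cell types overlap. *Cd3g* measured 787, 638, 579 and 337 CPM in WT CD4+ and 519.9, 589, 564 and 375 CPM in *Sirt2*-/- CD4+ replicates. For CD8+ TILs the values were 680.3, 759.7, 782 and 870.0 CPM in WT and 842, 1113, 1056 and 676 CPM in *Sirt2*-/- replicates. It was the most variable of the 9 genes, with a 3.31-fold range over the 16 libraries, and its cell types were apart in *Sirt2*-/- TILs and overlapped in WT TILs, where WT CD4+ replicate 1 was high.

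*Cd247* (chromosome 1, 165788681 to 165877277), which encodes the ζ chain, had a 1.79-fold range over the 16 libraries. It measured 268.5, 280.4, 245.5 and 235 CPM in WT CD4+ and 286, 237, 253 and 262 CPM in *Sirt2*-/- CD4+ replicates 1 to 4. In CD8+ TILs *Cd247* measured 160.2, 171, 161 and 176 CPM in WT and 192, 188, 164 and 165.5 CPM in *Sirt2*-/- replicates. All 8 CD8+ libraries lay below all 8 CD4+ libraries, and the genotypes overlapped within each cell type.

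Among the kinases, *Lck* (chromosome 4, 129548344 to 129573641) measured 304, 315, 292 and 302 CPM in WT CD4+ and 314, 265, 286.5 and 184.5 CPM in *Sirt2*-/- CD4+ replicates 1 to 4. The CD8+ libraries had 389, 450.4, 375 and 475 CPM in WT and 443, 479, 437 and 383 CPM in *Sirt2*-/- replicates. All 8 CD8+ libraries were above all 8 CD4+ libraries, the reverse of *Cd247*, and the genotypes overlapped. The lowest value was that of *Sirt2*-/- CD4+ replicate 4, the library with the fewest genes detected.

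*Cd247* and *Lck* are the genes that separated the cell types, in opposite directions, so the stretches before their starts are shown. *Lck* has 2 annotated starts in RefSeq, the distal and the proximal promoter, of which the distal one is known for use in mature T cells and the proximal one for use in thymocytes. The sequences are those of RefSeq on GRCm38.p6, 5′ to 3′ on the strand of the gene and ending at the start, with capitals for TGTGGT, the core that RUNX factors bind, and AGGAAG, a core of ETS factors, on either strand. The *Cd247* window is chr1:165788431-165788680 on the plus strand, which also lies in an exon of the noncoding gene *Gm16565*. The *Lck* windows are chr4:129573642-129573891 (distal) and chr4:129558392-129558622 (proximal) on the minus strand, the latter without its last 19 bases, which lie in an annotated *Lck* exon.
Cd247: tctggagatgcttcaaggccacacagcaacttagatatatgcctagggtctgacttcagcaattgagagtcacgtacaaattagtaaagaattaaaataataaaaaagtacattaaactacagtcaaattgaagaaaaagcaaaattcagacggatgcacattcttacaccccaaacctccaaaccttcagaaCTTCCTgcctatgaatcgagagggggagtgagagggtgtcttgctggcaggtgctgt
Lck distal: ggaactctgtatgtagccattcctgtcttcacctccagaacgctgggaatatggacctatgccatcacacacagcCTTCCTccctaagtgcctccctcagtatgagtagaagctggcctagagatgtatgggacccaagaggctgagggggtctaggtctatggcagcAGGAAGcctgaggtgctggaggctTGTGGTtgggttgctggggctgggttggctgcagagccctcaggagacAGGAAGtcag
Lck proximal: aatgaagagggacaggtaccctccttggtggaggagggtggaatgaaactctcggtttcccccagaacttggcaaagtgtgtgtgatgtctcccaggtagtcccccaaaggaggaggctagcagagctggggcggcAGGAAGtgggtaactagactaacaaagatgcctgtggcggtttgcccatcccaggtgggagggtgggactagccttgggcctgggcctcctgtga
The *Cd247* window held 1 ETS core, 57 bases before the start. The distal *Lck* window held 3 ETS cores and 1 RUNX core, and the proximal one held 1 ETS core. Of 32851 promoter windows of 250 bases, 29.5% held the ETS core and 14% the RUNX core, and matches to the 2 cores can share no more than an end base. The E-box CAGNTG (N for any base) and the TCF/LEF core CTTTGA were also searched and are not in capitals. An E-box lay 10 bases before the *Cd247* start and 63 bases before the proximal *Lck* start, and the distal *Lck* window held none. The TCF/LEF core was in none of these windows. Of all windows 44.8% held an E-box and 13.8% the TCF/LEF core. A match is a description of the letters and was not tested for binding.

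*Fyn* (chromosome 10, 39368855 to 39565381) measured 423, 346, 303 and 291 CPM in WT CD4+ and 292, 298, 301 and 492 CPM in *Sirt2*-/- CD4+ replicates 1 to 4. Its CD8+ values were 271, 384, 353 and 385 CPM in WT and 339, 359.8, 337 and 317 CPM in *Sirt2*-/- replicates. All 4 groups overlapped, and the highest and lowest values, 492 and 271 CPM, both came from libraries with few genes detected. Without those libraries the *Fyn* values of CD8+ TILs lay above those of CD4+ TILs in each genotype, at 353 to 385 against 291 to 346 CPM in WT and 317 to 360 against 292 to 301 CPM in *Sirt2*-/- mice. *Fyn* did not pass there (adjusted p = 0.103 in WT and 0.233 in *Sirt2*-/- TILs from edgeR). The share of all genes apart in these fewer libraries is not given here. With 4 against 4 libraries, which come apart less easily than fewer libraries, it was 22.7% in WT and 22.2% in *Sirt2*-/- TILs. *Zap70* (chromosome 1, 36761798 to 36782818) measured 92.7, 81.5, 87.0 and 127 CPM in WT CD4+ and 77.6, 79.0, 71.8 and 56.3 CPM in *Sirt2*-/- CD4+ replicates. The CD8+ libraries had 87.6, 110.2, 77.5 and 98.7 CPM in WT and 93.2, 93.1, 101 and 86.1 CPM in *Sirt2*-/- replicates. The *Sirt2*-/- CD4+ libraries were thus below all libraries of WT CD4+ and of *Sirt2*-/- CD8+ TILs.

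For the scaffold, *Lat* (chromosome 7, 126363824 to 126369570) measured 149, 211, 201 and 246 CPM in WT CD4+ and 230.2, 187, 201 and 103 CPM in *Sirt2*-/- CD4+ replicates 1 to 4. Its CD8+ values were 168, 203, 172 and 197 CPM in WT and 213, 230.4, 193 and 167 CPM in *Sirt2*-/- replicates, and all groups overlapped. The adaptor gene *Lcp2* (chromosome 11, 34046920 to 34092295) measured 396, 298, 274 and 207 CPM in WT CD4+ and 222, 255, 306.5 and 131 CPM in *Sirt2*-/- CD4+ replicates. For CD8+ TILs the values were 247, 202, 186 and 193 CPM in WT and 197, 181, 199 and 225 CPM in *Sirt2*-/- replicates. Its CD4+ libraries spread from 131 to 396 CPM, and both ends came from libraries with few genes detected.

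**Figure D2:**
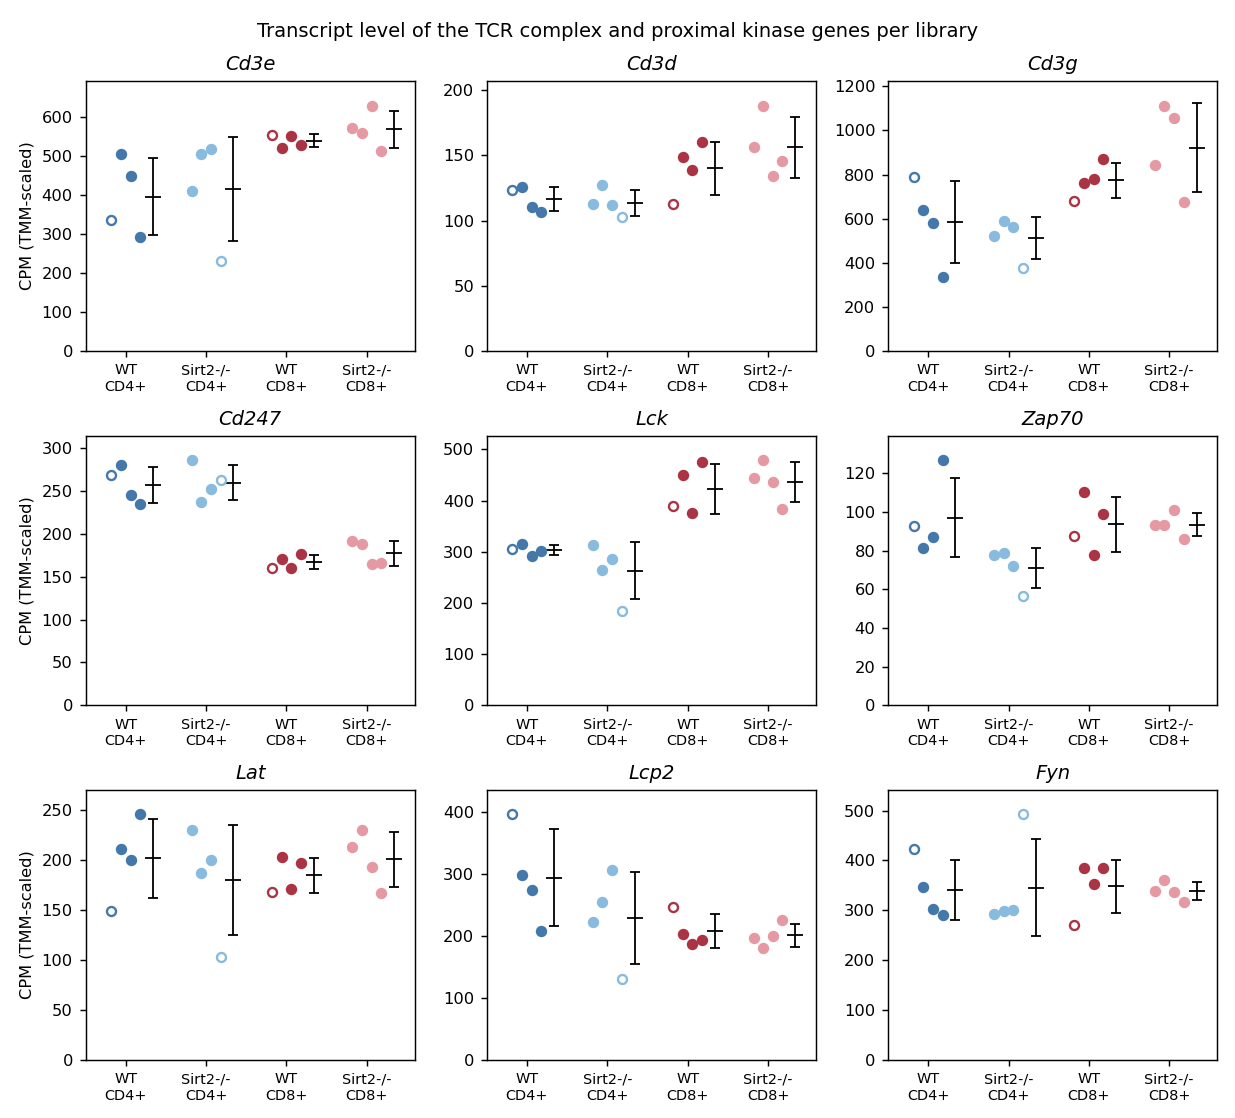
Level of each gene (CPM, TMM-scaled, axis from 0) in each of the 16 libraries, with mean ± SD of the 4 libraries of a group beside the points. Open circles are the 3 libraries with fewer than 15000 genes detected. *Cd247* is lower and *Lck* higher in all 8 CD8+ libraries than in all 8 CD4+ libraries.

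Between genotypes, no gene of the module passed the test in either cell type. In CD4+ TILs 0 of 15070 genes tested (0%) passed a Benjamini-Hochberg adjusted p below 0.05 in edgeR's quasi-likelihood test, with 190 at an unadjusted p under 0.05 and 7 genes called by DESeq2, and 0 of the 9 genes passed by either tool. The deleted gene *Sirt2* was itself not called by edgeR with all libraries (log2 −2.60, SE 1.3, unadjusted p = 0.0654 from edgeR). It passed with the libraries under 15000 genes left out (adjusted p = 0.00163 from edgeR). The fit with all libraries thus missed even this difference, and a gene without a call there is not shown to be unchanged. Among the 9 genes the lowest p was that of *Zap70*, at 71.2 ± 10.4 CPM in *Sirt2*-/- TILs (SD, n = 4) against 97.0 ± 20.4 CPM in WT TILs (SD, n = 4). This is a log2 difference of −0.44 (SE 0.22, unadjusted p = 0.0751, adjusted p = 1 from edgeR). Its groups did not overlap, 1 of 9 genes beside 3.13% of all genes tested. Over 3 against 3 libraries, leaving out those under 15000 genes, the log2 difference of *Zap70* was −0.37 (adjusted p = 0.99 from edgeR). *Lcp2* had −0.35 (SE 0.27) with all libraries, but 0.01 (SE 0.16) over 3 against 3. *Lck*, the kinase that the study examined as a substrate of SIRT2, had −0.20 (SE 0.18), with a 95% confidence interval from −0.61 to 0.21. The difference of *Lck* was −0.07 (SE 0.12) over 3 against 3 libraries and −0.053 without *Sirt2*-/- CD4+ replicate 4 alone. Over the 9 genes the intervals reached from −0.96 (*Lcp2*) to 0.70 (*Cd3e*). *Cd8a* and *Cd8b1* together measured 22.2 to 74.9 CPM in *Sirt2*-/- CD4+ and 14.0 to 24.9 CPM in WT CD4+ libraries (exact permutation test, p = 0.057, two-sided), and their part in these values was not tested. The median over the 9 genes was −0.16, beside −0.112 over all genes tested, and 3 of 9 estimates were above 0. Over 3 against 3 libraries the median was 0.01, beside −0.00156 over all genes, and 5 of 9 estimates were above 0.

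In CD8+ TILs the log2 differences of the 9 genes ran from −0.05 (*Lcp2*) to 0.25 (*Cd3g*). *Sirt2* was the 1 gene called of 15302 (0.00654%), with 579 genes at an unadjusted p under 0.05 and 28 genes called by DESeq2, and 0 of the 9 genes passed by either tool. *Sirt2* was 4.64-fold lower (adjusted p = 0.00663 from edgeR), and its call was lost without *Sirt2*-/- CD8+ replicate 1 or 4 (adjusted p = 0.0570 and 0.0620) and with all 16 libraries in 1 model (adjusted p = 1). The highest estimate among the 9 genes was that of *Cd3g*, at 922 ± 201 CPM in *Sirt2*-/- TILs (SD, n = 4) against 773 ± 78.0 CPM in WT TILs (SD, n = 4). This is a log2 difference of 0.25 (SE 0.15, adjusted p = 0.986 from edgeR). *Lck* stood at 436 ± 39.5 CPM in *Sirt2*-/- and 422 ± 48.0 CPM in WT TILs (SD, n = 4 each), and the 95% confidence interval of its log2 difference ran from −0.19 to 0.28. For *Zap70* the interval ran from −0.26 to 0.25 and for *Cd247* from −0.11 to 0.29. In 0 of the 9 genes were the groups apart, against 2.95% of all genes. The median over the 9 genes was 0.07, beside 0.011 over all genes, and 6 of 9 estimates were above 0. Without WT CD8+ replicate 1, 7 of 15943 genes passed (0.0439%), and without the 2 CD4+ libraries with few genes detected 6 of 16034 passed (0.0374%), 0 of them among the 9 genes in either cell type. In CD8+ TILs the differences of the 9 genes then ran from −0.14 to 0.20, with a median of 0.07.

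Whether the effect of genotype differed between CD4+ and CD8+ TILs was tested in 1 model over the 16 libraries, where 0 of 17270 genes (0%) passed, with 342 at an unadjusted p under 0.05 and 2 called by DESeq2. Over the 9 genes this difference ran from −0.06 (*Fyn*) to 0.45 (*Cd3g*), and the lowest unadjusted p was 0.0855, for *Zap70* (0.44 on the log2 scale, SE 0.24). Over the 13 libraries with at least 15000 genes detected, 0 of 17993 genes passed in edgeR (0%), with 664 at an unadjusted p under 0.05. The differences of the 9 genes then ran from −0.11 (*Cd3e*) to 0.34 (*Zap70*), and that of *Cd3g* was 0.09 (SE 0.28).

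**Figure D3:**
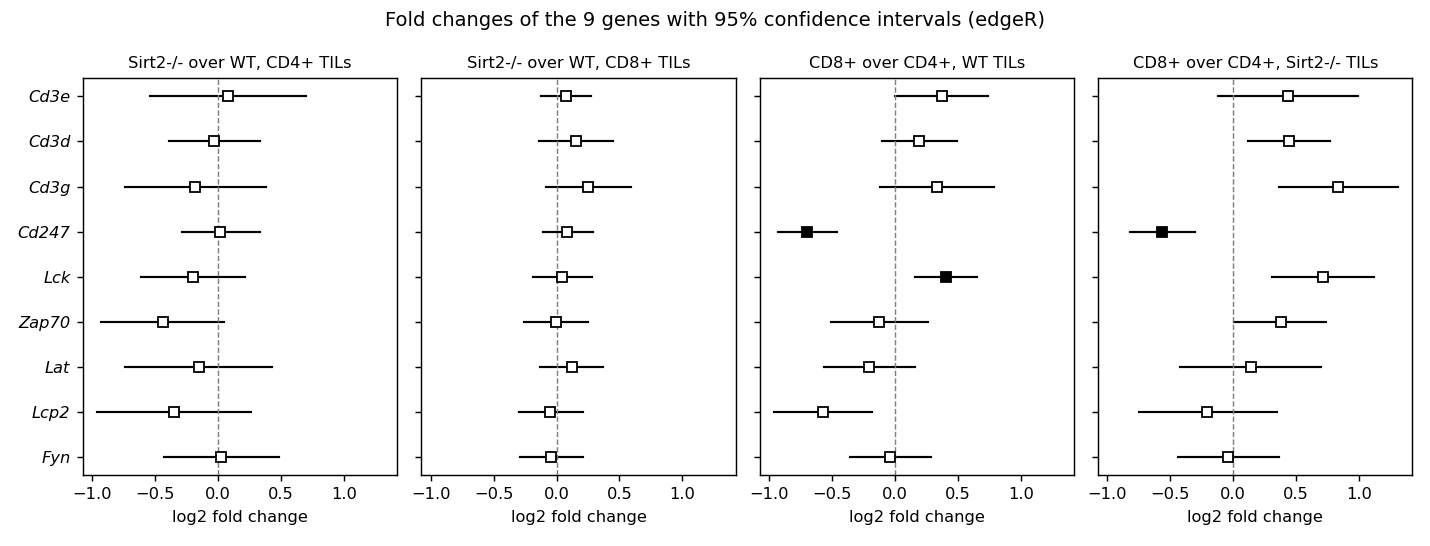
Log2 fold changes of the 9 genes with 95% confidence intervals from edgeR, for *Sirt2*-/- over WT in each cell type and for CD8+ over CD4+ in each genotype. Filled squares passed an adjusted p below 0.05, which were *Cd247* and *Lck* in WT TILs and *Cd247* in *Sirt2*-/- TILs. The genotype intervals in both cell types include 0 for each gene.

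Between CD8+ and CD4+ TILs the module was not uniformly higher or lower. *Cd247* was lower and *Lck* higher in CD8+ than in CD4+ TILs of WT mice, and *Cd247* was lower also in *Sirt2*-/- TILs. In WT TILs 1765 of 14892 genes tested passed (11.9%), among them 2 of the 9 genes. *Cd247* averaged 167 CPM (SD 8.0, n = 4) in CD8+ and 257 CPM (SD 20.9, n = 4) in CD4+ TILs, 1.62-fold lower (log2 −0.69, SE 0.11, adjusted p = 0.00195 from edgeR). *Lck* averaged 422 CPM (SD 48.0, n = 4) and 303 CPM (SD 9.47, n = 4), 1.33-fold higher in CD8+ TILs (log2 0.41, SE 0.11, adjusted p = 0.0372 from edgeR). The call of *Cd247* held without any 1 library, with adjusted p from 0.00338 to 0.0156. That of *Lck* was lost with all 16 libraries in 1 model (adjusted p = 0.0756), without WT CD4+ replicate 2 or 3 (adjusted p = 0.0711 and 0.104) and without WT CD8+ replicate 2, 3 or 4 (adjusted p = 0.0699, 0.0558 and 0.147). Its log2 difference stayed between 0.35 and 0.49 without any 1 library.

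The other 7 genes did not pass in WT TILs with all libraries. *Lcp2* averaged 207 CPM (SD 27.2, n = 4) in CD8+ and 294 CPM (SD 78.0, n = 4) in CD4+ TILs (log2 −0.57, SE 0.18, adjusted p = 0.0605 from edgeR), and it passed without WT CD4+ replicate 4 (adjusted p = 0.0258) and with DESeq2 (adjusted p = 0.0337). Its log2 difference was −0.33 without WT CD4+ replicate 1, one of the libraries with few genes (adjusted p = 0.166 from edgeR). *Cd3e*, *Cd3d* and *Cd3g* had log2 differences of 0.37, 0.20 and 0.33 (adjusted p = 0.206, 0.436 and 0.364 from edgeR). *Zap70*, *Lat* and *Fyn* had −0.12, −0.20 and −0.04 (adjusted p = 0.739, 0.511 and 0.928 from edgeR). The cell types did not overlap for *Cd3e*, *Lck* and *Cd247*, 3 of 9 genes beside 22.7% of all genes tested.

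In *Sirt2*-/- TILs 354 of 15787 genes tested passed (2.24%), among them *Cd247* alone of the 9 genes. It averaged 177 CPM (SD 14.6, n = 4) in CD8+ and 259.6 CPM (SD 20.4, n = 4) in CD4+ TILs, 1.48-fold lower (log2 −0.56, SE 0.11, adjusted p = 0.0431 from edgeR). Its estimate stayed between −0.60 and −0.52 without any 1 library, but its adjusted p was 0.0957, 0.108 and 0.122 without *Sirt2*-/- CD4+ replicate 1, 2 or 3 and 0.110, 0.157, 0.188 and 0.179 without *Sirt2*-/- CD8+ replicate 1, 2, 3 or 4. Without a filter on low counts the adjusted p of *Cd247* was 0.0805. *Cd3g* and *Lck* had the larger folds, 1.78 and 1.64 (log2 0.83 and 0.72, SE 0.21 and 0.18, adjusted p = 0.0927 for both from edgeR). *Cd3d* and *Zap70* had log2 differences of 0.45 and 0.38 (adjusted p = 0.200 and 0.406 from edgeR). The cell types did not overlap for *Cd3d*, *Cd3g*, *Lck*, *Zap70* and *Cd247*, 5 of 9 genes beside 22.2% of all genes tested. The median over the 9 genes was 0.38 beside 0.163 over all genes, and in WT TILs −0.03 beside −0.023. Without the libraries under 15000 genes the medians were 0.22 in *Sirt2*-/- and 0.25 in WT TILs, beside −0.00416 and 0.00665 over all genes.

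When the libraries under 15000 genes were left out, *Cd3d*, *Cd3g*, *Cd247*, *Lck* and *Lcp2* passed in each genotype, 5 of the 9 genes. Over 3 WT CD8+ and 3 WT CD4+ libraries, 4394 of 15694 genes passed (28%), and over 4 *Sirt2*-/- CD8+ and 3 *Sirt2*-/- CD4+ libraries, 4250 of 16703 genes passed (25.4%). *Cd247* was 1.5-fold lower in CD8+ TILs of WT and 1.49-fold lower in those of *Sirt2*-/- mice (adjusted p = 0.00215 and 0.0024 from edgeR), and *Lcp2* 1.35-fold and 1.33-fold lower (adjusted p = 0.0354 and 0.0291 from edgeR). *Lck* was 1.42-fold higher in CD8+ TILs of WT and 1.48-fold higher in those of *Sirt2*-/- mice (adjusted p = 0.00624 and 0.00316 from edgeR). *Cd3g* was 1.55-fold and 1.61-fold higher (adjusted p = 0.0350 and 0.00905 from edgeR), and *Cd3d* 1.3-fold higher in both (adjusted p = 0.0268 and 0.0430 from edgeR). *Cd3e*, *Zap70*, *Lat* and *Fyn* did not pass in either genotype. In *Sirt2*-/- TILs 1 library was left out, CD4+ replicate 4, and *Cd3d* and *Lcp2* passed only without it. With all libraries kept, *Cd3g* passed also with DESeq2, without a filter, with a filter of 10 counts and in the joint model of 16 libraries. *Lck* passed also with DESeq2, with the filter of 10 counts and in the joint model. Over all 16 libraries, *Cd247* and *Lck* were the 2 of 9 genes whose 8 CD8+ and 8 CD4+ libraries did not overlap, as was so for 7.41% of 17270 genes. In the libraries with at least 15000 genes *Cd3d* and *Cd3g* were apart as well. *Cd3d* ran from 134 to 188 CPM in CD8+ and from 106 to 127 CPM in CD4+ libraries, and *Cd3g* from 676 to 1113 and from 337 to 638 CPM. The share of all genes apart in these libraries is not given here.

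The sum of the stromal markers differed between the cell types in WT TILs, mostly by *Pecam1*. The sum of *Col1a1*, *Col1a2*, *Pdgfrb* and *Pecam1* was 93.8 to 116 CPM in WT CD4+ and 36.2 to 48.3 CPM in WT CD8+ libraries (p = 0.029 in a two-sided exact permutation test, which 4 against 4 libraries cannot go below). Nearly all of it was *Pecam1* (103 and 39.6 CPM on average), whereas *Pdgfrb* averaged 0.0164 and 0.0212 CPM. *Col1a1* averaged 3.78 CPM in WT CD4+ and 0.558 CPM in WT CD8+ TILs, with overlap. *Col1a2* averaged 0.762 and 0.974 CPM, the other way. In *Sirt2*-/- TILs the sum was 64.5 to 167 CPM in CD4+ and 40.3 to 87.8 CPM in CD8+ libraries (exact permutation test, p = 0.114, two-sided). The sum of *Cd2*, *Thy1*, *Trac*, *Cd5* and *Cd28*, transcripts of T cells, was 1320 to 1570 CPM in WT CD4+ and 1190 to 1360 CPM in WT CD8+ libraries (exact permutation test, p = 0.057, two-sided). This sum hides opposite differences between the cell types in WT TILs. *Thy1* was 2.57-fold higher in WT CD8+ TILs (adjusted p = 5.62e-05 from edgeR). *Cd2*, *Cd5* and *Cd28* were 2.1-fold, 3.42-fold and 2.47-fold lower there (adjusted p = 0.000486, 4.57e-05 and 0.00101 from edgeR), and *Trac* did not pass. The part of these stromal and T cell markers in the differences of *Cd247* and *Lck* was not tested.

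Ratios within a library do not depend on its scaling. The ratio of *Cd247* to *Cd3e* counts was 0.800, 0.554, 0.546 and 0.800 in WT CD4+ and 0.698, 0.468, 0.488 and 1.14 in *Sirt2*-/- CD4+ replicates 1 to 4. In the 8 CD8+ libraries it ran from 0.261 to 0.336, below the lowest CD4+ value. The ratio of *Cd247* to *Lck* was 0.777 to 1.42 in CD4+ and 0.371 to 0.433 in CD8+ libraries, also without overlap. The separations of *Cd247* to *Cd3e* and of *Cd247* to *Lck* follow from the ranges of the single genes given above and are no separate results. The ratio of *Fyn* to *Lck* had a median of 1.07 in CD4+ and 0.791 in CD8+ libraries. The cell types nearly separated for *Fyn* to *Lck*, with 0.943 as the highest CD8+ value and 0.930 as the lowest CD4+ value. *Sirt2*-/- CD4+ replicate 4 had the highest value of these 3 ratios. When the libraries under 15000 genes were left out, the CD4+ ratios of *Fyn* to *Lck* ran from 0.930 to 1.12 and the CD8+ ratios from 0.751 to 0.943. The ratio of *Zap70* to *Lck* was 0.247 to 0.420 in CD4+ and 0.194 to 0.245 in CD8+ libraries, while the ratios of *Cd3g* and *Cd3d* to *Cd3e* and of *Lcp2* to *Lat* overlapped between the cell types.

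**Figure D4:**
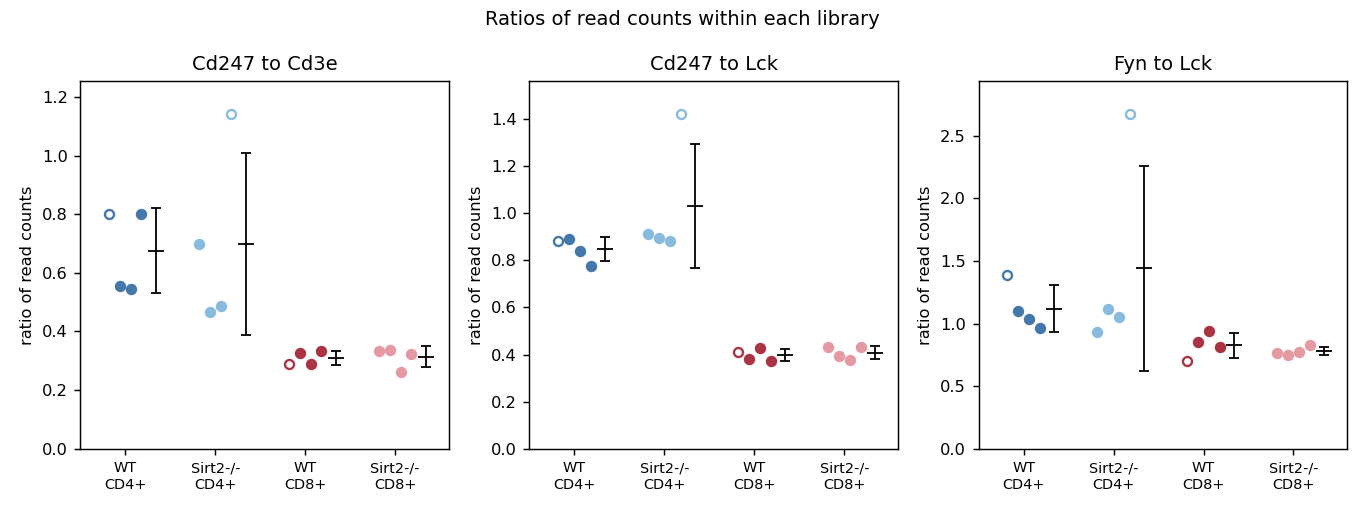
Ratios of read counts within each library (axes from 0), with mean ± SD of the 4 libraries of a group beside the points. Open circles are the libraries with fewer than 15000 genes detected. *Cd247* relative to *Cd3e* and to *Lck* is lower in all 8 CD8+ libraries, and the open circle of *Sirt2*-/- CD4+ is the highest point in each panel. These separations follow from the ranges of the single genes.

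Other parts of the receptor and its pathway were compared between cell types in the same fits. Of the 6 constant chain and coreceptor genes, *Cd4*, *Cd8a* and *Cd8b1* differed in both genotypes, as the names of the cell types require. *Trac*, *Trbc1* and *Trbc2*, the constant regions of the α and β chains, did not pass in either genotype. The CD4+ and CD8+ averages of *Trac* in WT TILs were 190.4 CPM (SD 18.4, n = 4) and 144 CPM (SD 29.6, n = 4), without overlap (log2 −0.48, adjusted p = 0.0863 from edgeR).

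Of 17 partners of the LAT and SLP-76 assembly, 2 rose and 3 fell in WT CD8+ against WT CD4+ TILs, 5 of 17 beside 11.9% of all genes tested. *Txk*, a TEC family kinase, was 2.59-fold higher (adjusted p = 0.000933 from edgeR), and *Prkcq*, the kinase PKCθ, was 1.46-fold higher (adjusted p = 0.00575 from edgeR). *Trat1*, a TCR-associated adaptor, was 11-fold lower (adjusted p = 5.38e-05 from edgeR). *Fyb*, an adaptor that binds SLP-76, was 1.91-fold lower (adjusted p = 0.000227 from edgeR), and *Plcg1*, the phospholipase activated on LAT, was 1.74-fold lower (adjusted p = 0.000966 from edgeR). Among the partners in *Sirt2*-/- TILs, *Txk* was 1.80-fold higher and *Trat1* 13.7-fold lower (adjusted p = 0.0414 and 0.00444 from edgeR), and the other 15 did not pass, so that 2 of 17 were called beside 2.24% of all genes. The median over the 17 was −0.01 in WT and 0.13 in *Sirt2*-/- TILs, beside −0.023 and 0.163 over all genes. When the libraries under 15000 genes were left out, 8 of the 17 passed in WT (5 higher, 3 lower) beside 28% of all genes, and 6 in *Sirt2*-/- TILs (2 higher, 4 lower) beside 25.4%. *Fyb* and *Plcg1* were then 1.72-fold and 1.52-fold lower also in *Sirt2*-/- CD8+ TILs (adjusted p = 0.000209 and 0.00167 from edgeR).

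Of 14 regulators of LCK and FYN, 13 were tested. In WT CD8+ TILs *Ptpn6*, the phosphatase SHP-1, was 2.15-fold higher (adjusted p = 0.00229 from edgeR). The surface receptors *Cd5* and *Cd6* were 3.42-fold and 2.05-fold lower (adjusted p = 4.57e-05 and 0.000177 from edgeR), so that 3 of 13 passed beside 11.9% of all genes. Of the regulators in *Sirt2*-/- TILs, *Cd5* was 2.62-fold lower (adjusted p = 0.00409 from edgeR), and the other 12 did not pass, 1 of 13 beside 2.24%. Over the 13 libraries with at least 15000 genes, 4 of 13 regulators passed in each genotype, beside 28% in WT and 25.4% in *Sirt2*-/- TILs. *Ptpn6* was then 2.63-fold higher in WT and 2.14-fold higher in *Sirt2*-/- CD8+ TILs (adjusted p = 8.01e-05 and 0.000121 from edgeR), and its mean in *Sirt2*-/- CD4+ TILs was 72.1 CPM over 3 libraries against 107.8 CPM over 4. Between genotypes 0 of the 6, 17 and 13 genes tested of these lists passed in either cell type, with all libraries and, for the 17 and 13, without those under 15000 genes. *Lat2*, a relative of *Lat* that acts in other leukocytes, was 2.90-fold higher in WT CD8+ than in WT CD4+ TILs (19.4 and 6.34 CPM, adjusted p = 0.00679 from edgeR).

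Within groups the correlations between pairs of the 9 genes differed in sign. The Spearman correlation of deviations from the group mean was taken for every pair, and only the extremes are given. Over the 13 libraries with at least 15000 genes detected, the highest were 0.78 for *Lck* with *Lat*, 0.78 for *Cd3d* with *Fyn* and 0.74 for *Cd3e* with *Cd3g*. The lowest was −0.54 for *Lat* with *Lcp2*. Over all 16 libraries these correlations were 0.77, 0.44, 0.44 and −0.08, in the same order. The points share the library and its scaling, and the values are descriptions. Among 11078 genes whose mean count was 100 or more, those most like the mean of the 9 genes were *Ndufs5*, *Hist1h4d*, *Gfer*, *Cox6c* and *Hist1h4k* over 16 libraries (Spearman correlation 0.96 to 0.89). Over the 13 libraries they were *Gm10076*, *Bsg*, *Cox7b*, *Hras* and *Aurkaip1* (0.96 to 0.93).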

How the data were processed

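The authors deposited whole-number read counts per gene for all 16 libraries in 1 table, not normalized. Its gene identifiers belong to GENCODE mouse release M21 on GRCm38. The submitters' processing notes name STAR, HTSeq and mm10, while versions and the strand setting of the count are not given in the sources used here. RNA input was low and no molecular identifiers were used, so the precision from depth covers counting error only.

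Each comparison was fitted in its own 8 libraries, and the difference of genotype effects in all 16, with edgeR 4.0.16 under R 4.3.3 (TMM, filterByExpr, robust quasi-likelihood fit, two-sided test). Benjamini-Hochberg adjustment covered all genes tested, with a threshold of 0.05. Log2 CPM for correlations had a pseudocount of 1, and RPKM used the union of annotated exons. Alternatives were DESeq2 1.42.0, RLE and total-count scaling, no filter and a filter of 10 counts, a joint model of the 16 libraries, a block for the replicate number, and the 13 libraries with at least 15000 genes detected. Each library was also left out in turn, for the 9 genes and *Sirt2*. The fits of genotype in CD8+ TILs and of cell type in WT TILs were also run on simulated counts with known changes. The outcome is not given here, and the other comparisons were not simulated.

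The 9 genes, all lists and the markers were chosen with earlier results of these data known. Named were the 9 genes, *Sirt2*, *Cd4*, *Cd8a*, *Cd8b1*, genes of the 4 pathway lists that passed (at most 5 a list by smallest p) and the 5 genes most like the mean of the 9. *Pou2f1*, *Pecam1*, *Pdgfrb*, *Trac* and other single markers of the summed lists were named after their values were seen. Of the list of relatives of the 9 genes in other leukocytes, *Lat2* alone is given, and the list as a whole is not reported here.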

Additional observations from a re-analysis of the deposited data

Results flagged for a closer look

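Of 80 groups of 4 libraries that were examined for a library far from the other 3, 10 had one, where chance gives about 1 in 20, or 4. *Fyn* measured 492 CPM in *Sirt2*-/- CD4+ replicate 4, against 292 to 301 CPM in the other 3 libraries of its group. *Sirt2* was at 0 CPM in the same library, against 10.2 to 12.2 CPM. It measured 75.6 CPM in WT CD4+ replicate 1, against 40.7 to 45.8 CPM, and 51.5 CPM in WT CD8+ replicate 1, against 33.4 to 35.0 CPM. All of these values came from the 3 libraries with fewer than 15000 genes detected.

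Summed markers of other cell types stood apart in 6 cases. Melanoma markers reached 81.5 CPM in *Sirt2*-/- CD4+ replicate 4 (others 9.98 to 11.5), 98.4 CPM in WT CD4+ replicate 1 (others 5.50 to 13.2) and 15.7 CPM in *Sirt2*-/- CD8+ replicate 4 (others 7.21 to 8.6). Of the 7 melanoma markers, 5 had no count in *Sirt2*-/- CD4+ replicate 4. *Mitf* (54 CPM) and *Dct* (27.5 CPM) made up the sum there. All 7 had a count in WT CD4+ replicate 1 and in *Sirt2*-/- CD8+ replicate 4. B cell markers reached 12.5 CPM in WT CD4+ replicate 1 (others 2.21 to 3.30), with no count for 2 of the 4. Erythroid markers reached 9.31 CPM in WT CD4+ replicate 1 (others 0 to 1.5) and 0.598 CPM in WT CD8+ replicate 3 (others 0 to 0.0564). Of the 4 erythroid markers, 3 and 2 had no count in these libraries.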

How the results depend on the processing

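Of the 9 genes, 2 passed between cell types in WT TILs, against 3 with DESeq2 (*Lcp2* added), 1 with all 16 libraries in 1 model, 5 with the libraries under 15000 genes left out, and 1 to 3 without any 1 library. In *Sirt2*-/- TILs 1 passed, against 3 each with DESeq2, a filter of 10 counts and the joint model, 5 with the restricted libraries and 0 to 5 without any 1 library. Genes called in all rose from 0 to 7 with DESeq2 and 6 with the restricted libraries for genotype in CD4+ TILs, and from 1 to 28, 7 and, without a filter, 5 in CD8+ TILs (0 to 7 without any 1 library). They were 2 with DESeq2 for the difference of genotype effects. For cell type in WT TILs they went from 1765 to 2657 with DESeq2, 811 in the joint model, 4394 with the restricted libraries and 1022 to 2767 without any 1 library. In *Sirt2*-/- TILs they went from 354 to 1340 with DESeq2, 907 with the filter of 10 counts, 781 in the joint model, 4250 with the restricted libraries and 111 to 4250 without any 1 library.

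With the replicate block, 0 of the 9 genes passed in *Sirt2*-/- TILs (*Cd247*, adjusted p = 0.120 from edgeR), 3 passed in WT TILs (*Lcp2* at adjusted p = 0.0354), 108 genes passed in *Sirt2*-/- TILs in all and 4 for genotype in CD8+ TILs. The numbers are not stated to pair libraries. Same-number correlations were 0.07 to 0.15 between WT CD4+ and CD8+ libraries, each of which correlated best with its own number (highest other 0.02), and 0.02 to 0.25 in *Sirt2*-/- TILs.

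Small estimates changed sign. For genotype in CD4+ TILs these were *Cd3d* 0.039, *Cd3g* 0.109, *Lcp2* 0.008 and *Fyn* −0.074 with the restricted libraries, *Cd247* −0.002 with DESeq2 and with RLE scaling, −0.022 with total-count scaling and −0.040 with the filter of 10 counts, and *Fyn* −0.037 and −0.053 with the last 2. For genotype in CD8+ TILs they were *Zap70* 0.001 with DESeq2 and RLE, 0.004 with the filter of 10 counts and 0.006 with the block, and *Lcp2* 0.054 with the restricted libraries. Between cell types in WT TILs *Fyn* had 0.009 with total counts, 0.036 without a filter, 0.001 with the filter of 10 counts, 0.032 in the joint model and 0.250 with the restricted libraries. In *Sirt2*-/- TILs *Lat* had −0.071 and *Fyn* 0.155 with the restricted libraries, *Fyn* 0.025 with the filter of 10 counts, and *Sirt2* 0.006 in the joint model and 0.615 with the block. For the difference of genotype effects *Cd3e* had −0.004 with total counts and −0.107 with the restricted libraries, *Fyn* 0.023 with the filter of 10 counts and *Sirt2* −0.088 with the restricted libraries.

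Leaving out 1 library changed signs within these ranges. For genotype in CD4+ TILs they were −0.042 to 0.287 (*Cd3e*), −0.091 to 0.028 (*Cd3d*), −0.037 to 0.064 (*Cd247*), −0.301 to 0.045 (*Lat*) and −0.177 to 0.132 (*Fyn*). In CD8+ TILs they were 0 to 0.112 (*Lck*), −0.074 to 0.093 (*Zap70*), −0.113 to 0.054 (*Lcp2*) and −0.139 to 0.016 (*Fyn*). Between cell types they were −0.197 to 0.075 (*Zap70*) and −0.083 to 0.148 (*Fyn*) in WT, and −0.071 to 0.270 (*Lat*), −0.125 to 0.155 (*Fyn*) and −0.443 to 0.227 (*Sirt2*) in *Sirt2*-/- TILs. For the difference of genotype effects they were −0.202 to 0.126 (*Cd3e*), −0.172 to 0.137 (*Fyn*) and −0.019 to 0.659 (*Sirt2*). The cause was not tested. DESeq2 gave no value for *Sirt2* in the comparisons with *Sirt2*-/- CD4+ libraries. The 9 genes had at least 2788 counts in each library, and the confidence intervals of the genotype comparisons, with 4 libraries per group, include differences in both directions.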
